A study of Mus musculus with 5 samples.

Results

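The small ribosomal subunit of the cell's cytoplasm, the 40S subunit, is built from one ribosomal RNA and a set of proteins encoded by the Rps genes and Rpsa. The mRNAs of these proteins were examined in an RNA immunoprecipitation experiment on mouse neocortex. Genes were taken by name: every gene symbol made of Rps, a number and at most a short suffix, plus Rpsa, leaving out the S6 kinases (Rps6k) and Rps19bp1. This gave 38 of the 49875 gene identifiers in the table. Of these, 31 encode standard 40S proteins and 7 are copies or paralogs of them (Rps4l, Rps27l, Rps27rt, Rps3a2, Rps3a3, Rps12l1 and Rps23rg1). RefSeq lists Rps3a2, Rps3a3 and Rps12l1 as pseudogenes and Rps4l as a transcribed pseudogene.

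All 5 libraries came from wild-type mouse embryos (forebrain, neocortex, E13.5), with no allele or treatment named. The groups differed by the material sequenced: RNA precipitated with an antibody against eIF4E, the protein that binds the mRNA cap to start translation (2 libraries), the cytoplasmic Input (2 libraries), and RNA precipitated with control rabbit immunoglobulin G, IgG (1 library). The eIF4E and Input libraries were labelled as biological replicates without naming animals or pools, so p-values measure only the spread between these libraries. The values are abundances from RSEM, a program that divides reads among transcripts and corrects for their length. Whether they are TPM or FPKM is not given in the sources used here, so a difference between whole libraries carries an unknown factor per library.

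mRNAs of ribosomal proteins carry a 5′ terminal oligopyrimidine (TOP) tract, a C at the cap followed by a run of C and T bases. The tract lets cells switch the translation of the whole set on or off with growth signals that pass through the kinase mTOR. The protein LARP1 binds the capped tract and competes with eIF4E for the cap, while the 4E-BP proteins, also mTOR targets, keep eIF4E from joining the initiation complex. In the developing cortex, dividing progenitors need a steady supply of ribosomes.

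The starts of 26 of the 38 genes were found in RefSeq's promoter table (build GRCm38.p6). They are shown because the TOP tract is the feature these mRNAs are known to share, and they are set beside the measurements below. Each line gives 10 bases before and 20 bases from the annotated start on, read 5′ to 3′ on the gene's strand. Capitals mark the longest run in this window that begins with C and has at least 4 further bases that are each C or T.
Rps10: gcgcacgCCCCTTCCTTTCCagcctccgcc
Rps27: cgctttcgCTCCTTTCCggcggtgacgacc
Rps27rt: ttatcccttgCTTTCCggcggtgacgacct
Rps6: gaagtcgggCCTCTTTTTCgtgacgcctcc
Rps18: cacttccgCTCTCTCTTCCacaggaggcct
Rps9: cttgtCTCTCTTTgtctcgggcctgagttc
Rps12: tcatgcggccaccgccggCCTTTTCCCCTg
Rps2: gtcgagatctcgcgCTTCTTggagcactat
Rps3a1: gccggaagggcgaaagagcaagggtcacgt
Rps28: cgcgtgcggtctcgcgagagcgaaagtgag
In this order the windows lie at chr17:27635225-27635254 (minus strand), chr3:90213629-90213658 (minus), chr9:114982720-114982749 (minus), chr4:86857348-86857377 (minus), chr17:33955646-33955675 (minus), chr7:3704031-3704060 (plus), chr10:23787190-23787219 (minus), chr17:24720053-24720082 (plus), chr3:86142649-86142678 (minus) and chr17:33824543-33824572 (minus). In 7 of the 10 the start is the outer end of the gene as RefSeq's gene table gives it. In Rps9, Rps12 and Rps2 the promoter table's start lies 87, 174 and 1942 bases inside that gene span. In Rps10, Rps27, Rps27rt, Rps6 and Rps18 the first base of the annotated transcript is a C inside the run. In Rps9, Rps12 and Rps2 a run lies near the start but does not hold the first base as a C with 4 pyrimidines after it, and Rps3a1 and Rps28 have no such run in the window.

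At the annotated start itself, a C followed by at least 4 bases that are each C or T stood in 7 of the 26 genes, which is 26.9%, against 3.01% of all 27025 genes in the promoter table. Besides the 5 shown these are Rps15a and Rps21. The same run anywhere from 20 bases before to 20 bases after the start, on the gene's own strand, was present in 21 of the 26 (80.8%), against 49.9% of all genes. With at least 7 such bases after the C, a form contained in the shorter one, the figures were 12 of 26 (46.2%) and 14.5%. A match is only a description of the annotated start, which may not be the start used in this tissue.

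Facts of the whole series bear on the values below. The IgG library stood apart: 11825 genes had a value above 0 there, against 17412 to 18745 in the other libraries, and its column total was 560076 against 708778 to 848550. All 15 markers of cortical progenitors and neurons, the labelled tissue, were above 0 in every library. So were all markers of the other cell types below in the Input and eIF4E libraries, so this alone does not single out the tissue. The cortical markers summed to 2633 and 2690 in the Input libraries, 2480 and 2372 in the eIF4E libraries and 1781 in the IgG library. Red blood cell markers were also present. The summed value of 10 such markers was 17169 and 18701 in the Input libraries, 6448 and 4845 in the eIF4E libraries and 2541 in the IgG library, where 2 of them, Hba-a2 included, were at 0. Microglial, endothelial and mural, and meningeal markers summed to at most 363 in any library, with 7 of 10, 5 of 10 and 4 of 8 at 0 in IgG alone.

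In the Input, 40S protein mRNAs were among the most abundant in the cortex. A gene was tested if 2 or more libraries had values of 1 or above, which kept 36 of the 38 members and 12769 genes in all. The median tested member stood at percentile 97.6 and 97.8 of those genes in the Input libraries, at 93.8 and 90.7 in the eIF4E libraries and at 88.3 in the IgG library. Of the 100 most abundant genes, 9 and 9 were members in Input, 7 and 5 in eIF4E and 5 in IgG.

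As a share of each library's total, which does not depend on the unknown factor, the 38 members held 3.71% and 3.90% of Input, 1.88% and 1.67% of the eIF4E precipitates and 1.36% of the IgG precipitate. The Input shares were 2.15 times the eIF4E shares on average, and the groups did not overlap. An exact two-sided permutation test of 2 against 2 libraries gave p = 0.333, the smallest value it allows. The 56 large-subunit proteins showed the same order, with 5.26% and 5.50% in Input, 2.36% and 2.07% in eIF4E and 1.65% in IgG. The 29 small-subunit proteins of the mitochondrial ribosome have mRNAs that are made in the nucleus and not counted among TOP mRNAs. They showed the same order, with 0.410% and 0.424% in Input, 0.381% and 0.354% in eIF4E and 0.173% in IgG. Their Input shares were 1.14 times their eIF4E shares on average, a smaller gap than that of the members.

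**Figure D1:**
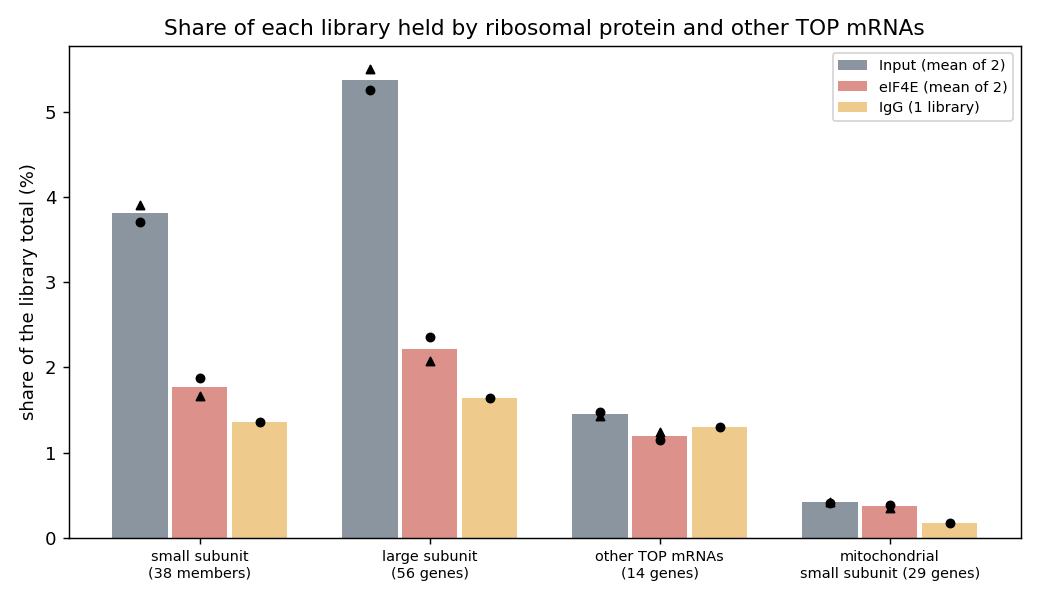
Share of the library total in percent (vertical axis, from 0) held by 4 groups of mRNAs. Bars are the mean of 2 libraries for Input and eIF4E and the single library for IgG, and points are libraries (circle replicate 1, triangle replicate 2). Small-subunit mRNAs fell from 3.71% and 3.90% of Input to 1.88% and 1.67% of eIF4E.

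The eIF4E precipitate was then set against Input, which asks which mRNAs were carried down with the cap-binding protein beyond their level in the cytoplasm. limma, a linear model that shares information on the spread between genes, was fitted to log2(value + 1) of all tested genes. Fold changes are on that scale, which understates changes of low values, and the call threshold was an adjusted p of 0.05 after Benjamini-Hochberg adjustment over all genes. Of the 36 tested members, 30 were lower in eIF4E than in Input, where 30.6% of all tested genes were lower. Rps3a1 was higher, where 43.3% of all genes were higher, and 5 members passed neither way. The median log2 fold change of the members was -1.37, and that of all tested genes was 0.16. At least a 2-fold loss was called in 23 members, against 7.26% of all genes. In 32 members both eIF4E libraries lay below both Input libraries, which held for 37.6% of all genes.

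The direction of most single members did not hang on how libraries were scaled, although that of the typical gene did. The median of all genes was 0.16 as deposited, -0.11 with median-of-ratios size factors, -0.11 with quantile normalization and 0.38 with every library brought to the same total. Under those 3 scalings 33, 27 and 28 members were lower and 0, 2 and 2 were higher, while over all genes the higher and lower calls were 5535 and 3906 as deposited and 4417 and 5256, 4297 and 5145, and 6498 and 2735 under the scalings. Of the 30 lower members, 29 kept their sign in all 13 alternatives, and 22 kept the call as well. The exception in sign was Rps6 (log2 fold change 0.05 with quantile normalization).

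**Figure D2:**
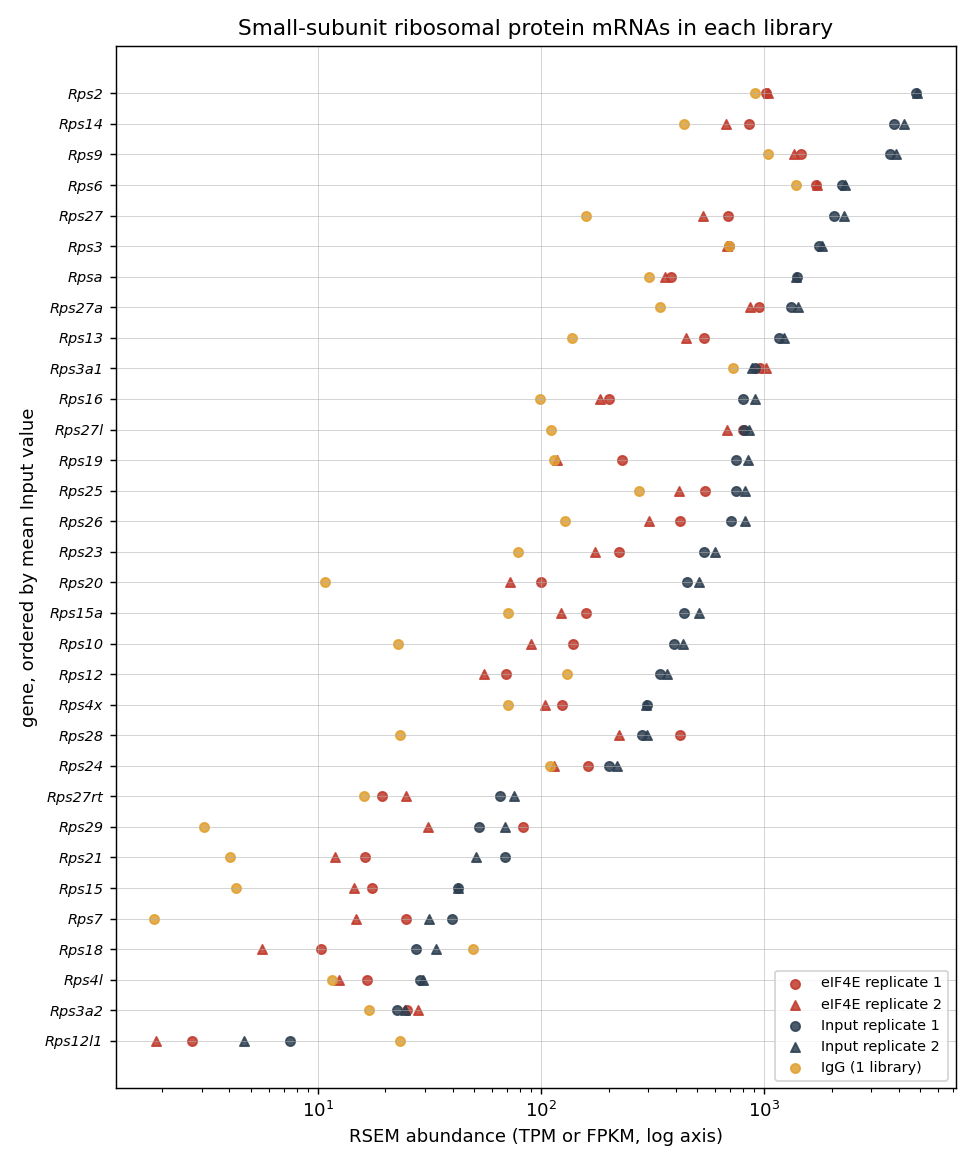
RSEM abundance (TPM or FPKM, log axis) of 32 of the tested members in each library, ordered by mean Input value. Most rows run from IgG on the left through eIF4E to Input on the right. Rps18 and Rps12l1 have their highest value in IgG, and Rps3a1 and Rps3a2 are highest in both eIF4E libraries. Rps28 and Rps29 have their single highest value in eIF4E replicate 1.

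The head of the 40S subunit forms part of the mRNA entry channel and part of the decoding site. Of its 14 listed proteins, 12 were lower in eIF4E than in Input and none was higher, with a median log2 fold change of -1.62. Rps20, a head protein next to Rps3, was measured at 99.5 and 72.4 in eIF4E, 447 and 508 in Input and 10.7 in IgG. That was a log2 fold change of -2.48 (SE 0.17, limma adjusted p = 2.8e-04).

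Rps12 sits at the tip of the head called the beak. It had 69.6 and 55.4 in eIF4E and 340.4 and 367 in Input, with 130.1 in IgG, so that its value was higher in the control precipitate than in either eIF4E library. Its log2 fold change against Input was -2.49 (SE 0.12, limma adjusted p = 1.29e-04). Its neighbour in the beak, Rps10, had 139 and 89.9 in eIF4E, 393 and 431 in Input and only 22.7 in IgG, giving -1.87 (SE 0.22, limma adjusted p = 0.00142) against Input. Rps3, which helps to form the mRNA entry, had 696 and 677 in eIF4E, 1761 and 1809 in Input and 692 in IgG. As deposited, Rps3 had nearly equal values in both precipitates, well under Input (log2 fold change of eIF4E against Input -1.38, SE 0.04, limma adjusted p = 6.1e-05). With every library at the same total, Rps3 was lower in eIF4E than in IgG (-0.36, limma adjusted p = 0.00128).

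Rps18, a head protein at the interface with the large subunit, was recorded at 10.3 and 5.61 in eIF4E, 27.4 and 33.9 in Input and 49.2 in IgG. Its level is far under those of most other 40S proteins, and it was lower in eIF4E than in Input by a log2 fold change of -1.87 (SE 0.28, limma adjusted p = 0.00340). RSEM splits reads between near-identical copies, so the single values of genes with many copies are uncertain, low ones such as Rps18 included.

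Rps28 and Rps29, both small head proteins, were the 2 head members not called. Rps28, which lies by the exit of the mRNA channel, had 419 and 222 in eIF4E, 281 and 299 in Input and 23.2 in IgG. The eIF4E libraries straddled Input, and the sign turned on which of them was used: the log2 fold change was 0.07 with both, -0.38 without eIF4E replicate 1 and 0.53 without eIF4E replicate 2. A fit without a library leaves a group with 1, which is then assumed to vary like the other groups, here and below. Rps29, a zinc-binding protein, had 82.9 and 31.01 in eIF4E, 52.5 and 68.8 in Input and 3.06 in IgG. It behaved alike, with -0.24 (SE 0.48) from both, -0.93 without eIF4E replicate 1 and 0.46 without eIF4E replicate 2.

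The body and platform of the subunit hold the other 17 standard proteins. Of these, 15 were lower in eIF4E than in Input, Rps3a1 was higher and 1 was not called, with a median log2 fold change of -1.38. Rps2, at the mRNA entry, was the most abundant member in Input, with 4771 and 4843, against 1021 and 1040.0 in eIF4E and 904 in IgG. The replicates agreed within a few percent, and the log2 fold change was -2.22 (SE 0.03, limma adjusted p = 4.7e-05). Rps14, a platform protein near the P site, had 848 and 670.4 in eIF4E, 3820.4 and 4232 in Input and 438 in IgG, giving -2.41 (SE 0.13, limma adjusted p = 1.52e-04). Rpsa, the platform protein also described as a laminin receptor precursor, had 382 and 359 in eIF4E, 1399 and 1390.2 in Input and 304 in IgG. Its log2 fold change was -1.91 (SE 0.05, limma adjusted p = 5.6e-05).

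Other body proteins had smaller changes. Rps9, which forms the mRNA entry with Rps2 and Rps3, had 1451 and 1355 in eIF4E, 3669 and 3891 in Input and 1035 in IgG, a log2 fold change against Input of -1.43 (SE 0.05, limma adjusted p = 8.5e-05). Rps6, the 40S protein phosphorylated by the S6 kinases, kept the highest eIF4E values of all members, 1706 and 1720.3, against 2229 and 2289.6 in Input and 1379.9 in IgG. It was lower by a log2 fold change of -0.40 (SE 0.04, limma adjusted p = 5.88e-04), the smallest called loss, and this is the change whose sign turned with quantile normalization. Rps7 had 24.8 and 14.7 in eIF4E, 39.6 and 31.4 in Input and 1.84 in IgG. Its call against Input (log2 fold change -0.85, SE 0.27, limma adjusted p = 0.0393) was lost with the same total (-0.62, limma adjusted p = 0.0858), without the filter on low values, without eIF4E replicate 2 and without either Input replicate.

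Rps3a1 was the single member called higher in eIF4E than in Input. This platform protein, which touches initiation factor eIF3, had 955 and 1018 in eIF4E, 906 and 880.0 in Input and 724 in IgG. Both eIF4E values exceeded both Input values, by a log2 fold change of 0.14 (SE 0.05, limma adjusted p = 0.0458). The call was not firm: with median-of-ratios scaling the change was -0.18 (limma adjusted p = 0.0336), and the call was lost in 6 further alternatives, including without eIF4E replicate 2, without either Input replicate and without the IgG library (limma adjusted p = 0.0511).

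A further 11 members (Rps13, Rps15, Rps15a, Rps16, Rps19, Rps21, Rps23, Rps24, Rps25, Rps26 and Rps27a) were all lower in eIF4E. Their log2 fold changes ran from -2.26 for Rps19, the gene most often mutated in Diamond-Blackfan anaemia, to -0.60 for Rps27a, which encodes ubiquitin fused to a 40S protein. Their values lay between 42.2 (Rps15) and 1413 (Rps27a) in Input and between 11.9 (Rps21) and 947 (Rps27a) in eIF4E. The call of Rps24 was lost with quantile normalization (-0.46, limma adjusted p = 0.0617), with the same total (-0.39, limma adjusted p = 0.0859), without the filter and without either Input replicate. Those of Rps25 (-0.28, limma adjusted p = 0.128) and Rps27a (-0.17, limma adjusted p = 0.0662) were lost with quantile normalization, and that of Rps25 also without Input replicate 2.

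Grouped by evolutionary age, 13 of the 15 standard proteins with a bacterial homologue were lower, with a median log2 fold change of -1.75. Of the 16 without one, 14 were lower and Rps3a1 was higher, with a median of -0.99. No test was made between the groups. The 2 standard 40S proteins that the name rule does not reach moved with the rest. Fau, a fusion of a ubiquitin-like protein and a 40S protein, had 500.5 and 388 in eIF4E, 1056 and 1123 in Input and 185 in IgG. Rack1, the scaffold on the back of the head, had 626 and 616 in eIF4E, 1764 and 1842 in Input and 234 in IgG. Both were lower in eIF4E than in Input, by log2 fold changes of -1.303 (limma adjusted p = 8.75e-04) and -1.54 (limma adjusted p = 6.1e-05), respectively.

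**Figure D3:**
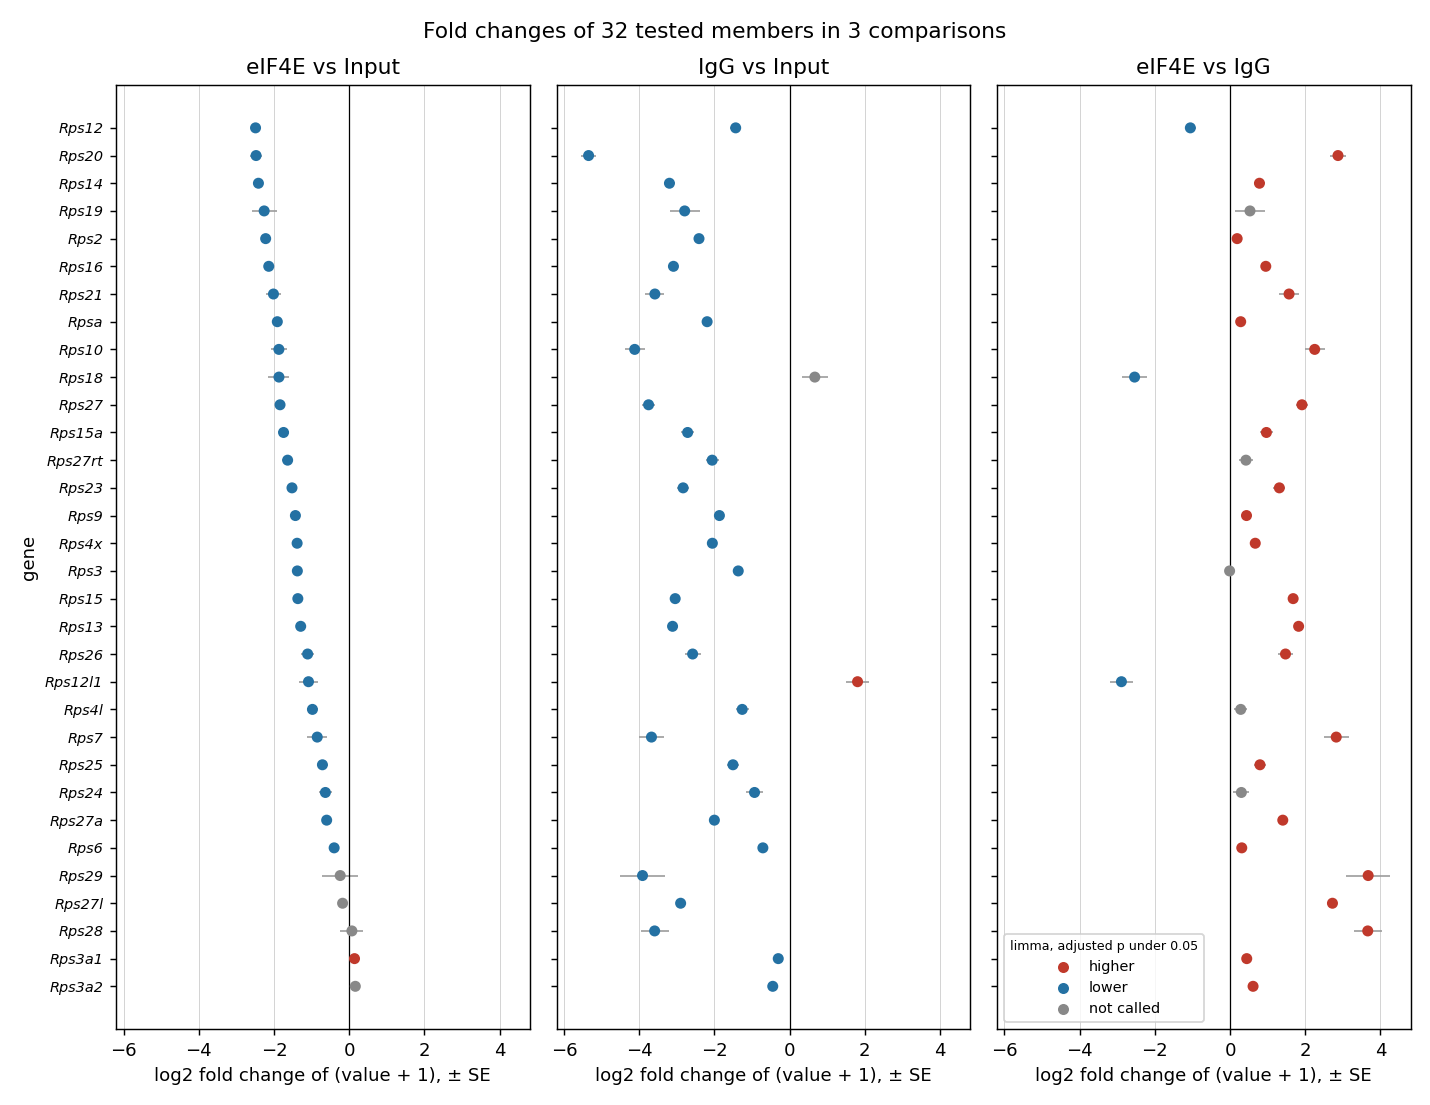
log2 fold change of (value + 1) ± SE from limma for 32 of the tested members in 3 comparisons, ordered by eIF4E against Input; blue marks lower, red higher and grey not called at an adjusted p of 0.05. In eIF4E against Input 27 points are blue, and in eIF4E against IgG 24 are red.

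The run of pyrimidines at the annotated start was set beside these changes as a description. The 7 members with the run at the start were all lower in eIF4E than in Input, with a median log2 fold change of -1.84 and a range from -2.01 (Rps21) to -0.40 (Rps6). The other 18 tested members with an annotated start had a median of -1.37, and 15 of them were lower. The 5 members with no run within 20 bases of the start, Rps28, Rps3, Rps3a1, Rps4x and Rpsa, had a median of -1.38. They ranged from -1.91 for Rpsa to 0.14 for Rps3a1, where the 20 tested members with such a run ranged from -2.49 to -0.17.

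The copies and paralogs were set beside their partners. Rps27l, a paralog of the zinc-binding Rps27 that is known as a p53 target, had 799.7 and 681 in eIF4E, 812 and 854 in Input and 111 in IgG. Rps27 itself had 684 and 530.1 in eIF4E, 2049.5 and 2268 in Input and 159 in IgG. Rps27 was thus lower in eIF4E than in Input (log2 fold change -1.84, SE 0.14, limma adjusted p = 3.5e-04), whereas Rps27l was not called (-0.17, SE 0.09, limma adjusted p = 0.133). The ratio of Rps27l to Rps27, which is free of any library factor, was 0.396 and 0.376 in Input, 1.17 and 1.28 in eIF4E and 0.696 in IgG. The mean ratio was 3.18 times as high in eIF4E as in Input, with no overlap between libraries. The difference of Rps27l alone was less settled: it was called lower with median-of-ratios scaling (-0.50, limma adjusted p = 0.00378) and without eIF4E replicate 1 (-0.29, limma adjusted p = 0.0168), and higher with quantile normalization (0.27, limma adjusted p = 0.0160).

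Rps27rt, an intronless copy of Rps27 whose annotated start region resembles it in the sequences above, had 19.3 and 24.7 in eIF4E, 65.1 and 75.3 in Input and 16.0 in IgG. It was lower against Input (log2 fold change -1.64, SE 0.14, limma adjusted p = 5.84e-04), close to Rps27. Its ratio to Rps27 was 0.0282 and 0.0466 in eIF4E, 0.0318 and 0.0332 in Input and 0.101 in IgG. Reads of such copies may be shared with the parent gene.

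Rps4x, the X-linked body protein, had 123 and 104 in eIF4E, 297 and 296 in Input and 70.6 in IgG. Its autosomal copy Rps4l had 16.5 and 12.4 in eIF4E, 28.6 and 29.6 in Input and 11.6 in IgG. Both were lower in eIF4E than in Input, by log2 fold changes of -1.38 (SE 0.09, limma adjusted p = 2.66e-04) and -0.98 (SE 0.14, limma adjusted p = 0.00327). Rps4l stood at 0.134 and 0.119 of Rps4x in eIF4E, at 0.0964 and 0.09995 in Input and at 0.164 in IgG.

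Rps3a2 had 25.1 and 27.9 in eIF4E, 22.5 and 24.6 in Input and 17.0 in IgG, and was not called against Input (0.16, SE 0.09, limma adjusted p = 0.148) but was called higher with the same total (0.40, limma adjusted p = 0.0129). It kept a nearly fixed ratio to Rps3a1, from 0.0234 to 0.0279 over the 5 libraries. Rps12l1 had 2.72 and 1.88 in eIF4E, 7.48 and 4.66 in Input and 23.3 in IgG, the only tested member with a called higher value in IgG than in Input. It was lower in eIF4E than in Input (-1.08, SE 0.24, limma adjusted p = 0.0135), a call lost without the filter, without eIF4E replicate 2 and without Input replicate 1. The 2 members that were not tested were near the detection limit: Rps3a3 had 0.32 and 0.35 in eIF4E, 0.38 and 0.48 in Input and 0.50 in IgG, and Rps23rg1 had 1.31 and 0.99, 0.58 and 0.93, and was listed at 0 in IgG.

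**Figure D4:**
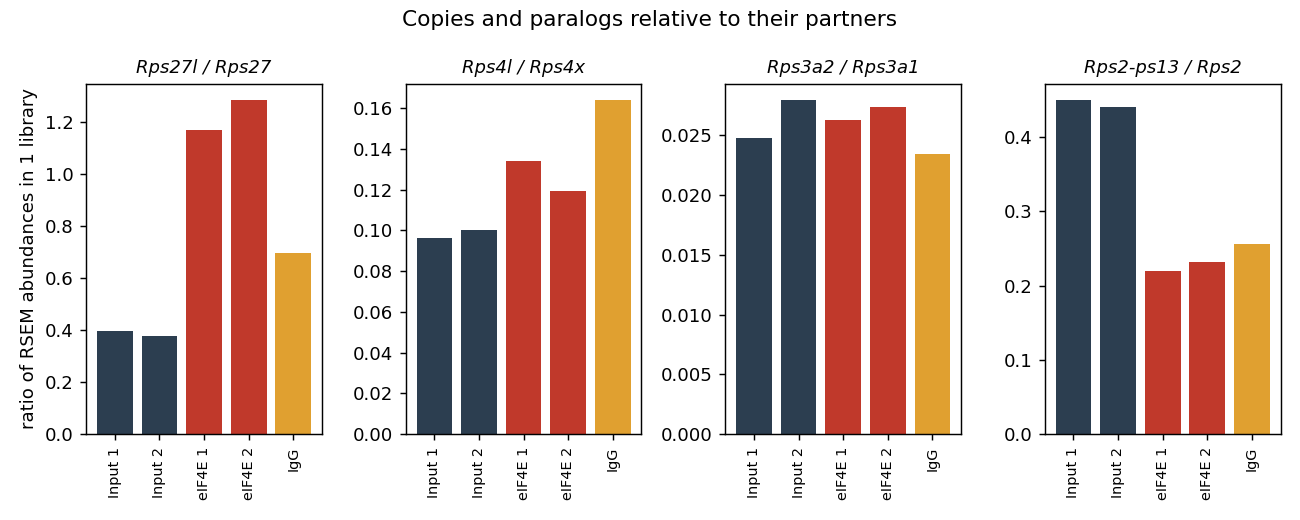
Ratio of the abundance of a copy or paralog to its partner within each library (vertical axes from 0, one bar per library, separate scales). Rps27l to Rps27 is near 0.4 in Input and above 1 in eIF4E, while Rps3a2 to Rps3a1 differs little among the 5 libraries.

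The table also held 116 pseudogenes named after 24 of the members, of which 64 were at 0 in every library. Rps12 had the most, 24, followed by Rps19 with 14 and Rps2 with 10. Of the 24 that were tested, 20 were lower in eIF4E than in Input and none was higher. Of all tested genes 30.6% were lower and 43.3% higher. The 3 other scalings gave 22, 23 and 15 pseudogenes lower, again with none higher. Rps15a-ps5, Rps10-ps1, Rps2-ps5 and Rps19-ps6 reached 1 only in the Input libraries. They passed the filter through Input alone, so their lower values in eIF4E were fixed by the filter. The pseudogene with the highest Input value, Rps2-ps13, had 225 and 241 in eIF4E, 2143 and 2129.7 in Input and 231 in IgG. Its ratio to Rps2 was 0.449 and 0.440 in Input, 0.220 and 0.232 in eIF4E and 0.256 in IgG. Rpsa-ps10 moved the other way relative to its parent, at 0.140 and 0.142 of Rpsa in Input, 0.260 and 0.251 in eIF4E and 0.191 in IgG. All named pseudogenes together held 0.352% and 0.345% of the Input libraries, 0.0882% and 0.0858% of the eIF4E libraries and 0.0985% of the IgG library.

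Against IgG, which measures what binds to beads and antibody without eIF4E, most members were higher in the eIF4E precipitate. This comparison shares the eIF4E libraries with the one above, and the lone IgG library has no replicate check: it is assumed to vary like the others. Of the 36 members, 28 were higher in eIF4E and 3 were lower, where 53.1% of all tested genes were higher and 30.6% were lower. The median log2 fold change was 0.96, and that of all genes was 0.55. Both eIF4E libraries exceeded IgG in 32 members, against 59.9% of all genes, and both lay under it in 3, against 36.5%. The split depended on the scaling: 21 members were higher and 8 lower with quantile normalization, and 22 and 5 with every library at the same total, while the median of all genes was -0.04 and 0.27.

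By location, 16 of the 17 body and platform proteins and 10 of the 14 head proteins were higher in eIF4E than in IgG (10 and 9 with quantile normalization, 11 and 10 with the same total). The changes were greatest in Rps29 (log2 fold change 3.67, SE 0.59, limma adjusted p = 0.00329) and Rps28 (3.66, SE 0.37, limma adjusted p = 6.71e-04), 12.8-fold and 12.7-fold on the scale of value + 1. Rps20 (2.87), Rps7 (2.82), Rps27l (2.72) and Rps10 (2.25) were also higher.

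Several of the most abundant members differed little from IgG. Rps2 was higher by 0.19 (limma adjusted p = 0.0106), Rpsa by 0.28 (0.00717), Rps6 by 0.31 (0.00189), Rps9 by 0.44 (0.00264) and Rps3a1 by 0.44 (0.00159). With quantile normalization all 5 of these changed sign, to -0.45, -0.46, -0.59, -0.36 and -0.11. With the same total, Rps2 was called lower (-0.16, limma adjusted p = 0.0268), and its call was also lost with median-of-ratios scaling and without either Input replicate. Rps3 was not called (-0.01, limma adjusted p = 0.825), but it was lower with quantile normalization (-0.61, limma adjusted p = 2.36e-04) and with the same total (-0.36, limma adjusted p = 0.00128). The 3 members lower in eIF4E than in IgG were Rps12l1 (-2.89, limma adjusted p = 6.95e-04), Rps18 (-2.54, limma adjusted p = 0.00177) and Rps12 (-1.06, limma adjusted p = 0.00200). These 3 kept both sign and call in all 11 alternatives run for this comparison.

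Most members had lower values in the IgG precipitate than in Input. Of the 36 members 34 were lower, against 50.3% of all tested genes, and Rps12l1 was higher, against 37.8%. The median log2 fold change was -2.55 for the members and -0.43 for all genes. IgG lay under both Input libraries in 34 members, against 55.9% of all genes, and above both in Rps12l1 and Rps18, against 41.9%. Rps20 (-5.35, SE 0.21, limma adjusted p = 2.4e-05), Rps10 (-4.12, SE 0.26) and Rps29 (-3.91, SE 0.59) fell by large amounts. The least affected were Rps3a1 (-0.30), Rps3a2 (-0.45) and Rps6 (-0.71), whose signs turned under quantile normalization or the same total, and Rps18 was not called (0.67, limma adjusted p = 0.122). The call of Rps24 (-0.93) was lost with quantile normalization (-0.38), with the same total (-0.35), without the filter and without either Input replicate, that of Rps3a1 without Input replicate 1 and that of Rps3a2 without Input replicate 2. The call of Rps25 was lost with quantile normalization (-0.43, limma adjusted p = 0.0684). Rps18 was called higher with the same total (1.26, limma adjusted p = 0.0173) and without either eIF4E replicate.

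The 2 eIF4E libraries differed in the members in one direction. In 31 of the 36 members eIF4E replicate 1 had the higher value, with a median ratio of replicate 1 to replicate 2 of 1.29. Over all tested genes replicate 1 was higher in 46.2%, with a median ratio of 0.992. The 2 values were over 1.5-fold apart, in either direction, in 8 members (22.2%), and in 4.35% of all genes. The widest gap was in Rps29, and Rps19 and Rps28 also stood well off the line of equality. The Input libraries leaned the other way and less, with replicate 1 higher in 6 of 36 and a median ratio of 0.933. Large-subunit mRNAs shared the lean in eIF4E, with replicate 1 higher in 47 of 52 and a median ratio of 1.28.

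The summed red blood cell markers, which rest on the globins, moved with the members. The sum was higher in eIF4E replicate 1 than in replicate 2 and higher in Input than in every precipitate, and all 9 that were tested were lower in eIF4E than in Input. The 7 tested globins were lower in IgG than in Input, but Alas2 and Slc4a1, markers that are not globins, were higher in IgG than in Input (1.74 and 1.67) and lower in eIF4E than in IgG (-2.94 and -2.93). The part of red blood cells in the members' values was not tested. Between replicates of bulk tissue, fewer cells of a type and less RNA per cell cannot be told apart. Input and precipitates are fractions of a cytoplasmic supernatant, so a difference between them is not a count of cells.

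**Figure D5:**
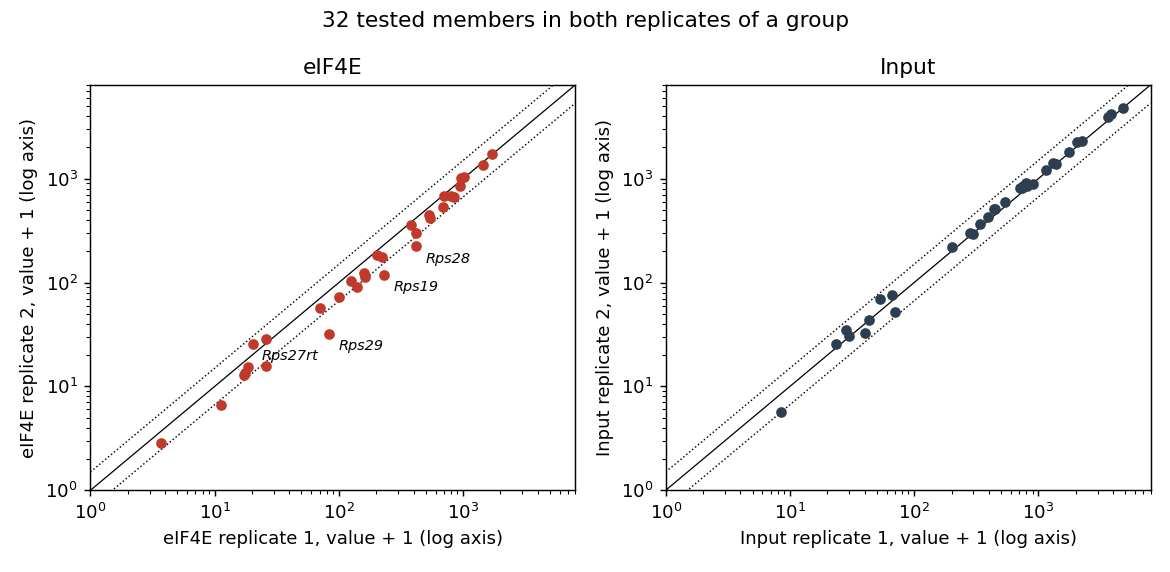
Values of 32 of the tested members in replicate 1 (horizontal, value + 1, log axis) and replicate 2 (vertical, value + 1, log axis) of eIF4E (left) and Input (right); the full line marks equal values and dotted lines a 1.5-fold difference. In eIF4E 27 of 32 points lie below the line, and in Input 6 of 32 do.

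The large subunit is the partner of the 40S subunit in the ribosome. Of 52 of its mRNAs tested, 39 were lower and 3 higher in eIF4E than in Input, with a median log2 fold change of -1.26, and 40 were higher and 4 lower in eIF4E than in IgG. With median-of-ratios, quantile and same-total scaling the lower calls against Input were 45, 40 and 38. Of the 29 mitochondrial small-subunit mRNAs, 19 were lower and 2 higher in eIF4E than in Input, with a median of -0.41. Under the same 3 scalings 25, 19 and 13 were lower. Against IgG, 23 of the 29 were higher and 4 lower in eIF4E, with a median of 1.62. The 40S members had a median of 0.96 there, so an excess over IgG was not particular to them. Of all tested genes, 30.6% were lower and 43.3% higher in eIF4E than in Input. In eIF4E against IgG 53.1% of all tested genes were higher and 30.6% lower. The difference between the large-subunit or mitochondrial mRNAs and the 40S mRNAs was not tested.

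Other mRNAs with known TOP tracts did not move as a block. Of 14 on the list (elongation and initiation factors and a few others), 8 were lower in eIF4E than in Input and 5 were higher. Of all tested genes 30.6% were lower and 43.3% higher. Under the 3 scalings 8, 7 and 8 of the 14 were lower. Eif3f, an eIF3 subunit, had a log2 fold change of -2.51 (limma adjusted p = 2.18e-04) and Eef1g, an elongation factor subunit, -2.11 (limma adjusted p = 7.5e-05). At the other end, Pabpc1, the poly(A)-binding protein, was higher by 2.35 and Npm1, a nucleolar chaperone, by 2.10 (limma adjusted p = 5.4e-05 for each). Together the 14 held 1.47% and 1.42% of Input, 1.15% and 1.24% of eIF4E and 1.303% of IgG.

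Many mRNAs of the proteins that control TOP mRNAs were higher in a precipitate than in Input, but not all of these in both precipitates. Of 15 tested out of 16 listed (Eif4ebp3 was listed at 0 in every library), 10 were higher and 2 were lower in eIF4E than in Input. Under the 3 scalings 10, 9 and 12 were higher, and as deposited 43.3% of all genes were higher. In IgG against Input 10 were higher and 5 lower, where 37.8% and 50.3% of all tested genes were. The genes were partly others. Eif4e (-0.74), Cnbp (-0.43) and Larp4 (-0.76) were lower in IgG than in Input but higher in eIF4E. Mtor (2.07), Mlst8 (0.43) and Eif4ebp2 (1.14) were higher in IgG than in Input but not in eIF4E. In eIF4E against IgG 6 were higher and 8 lower, where 53.1% and 30.6% of all tested genes were, with a median of -0.38. Ssb, the La protein, had 293 and 295 in eIF4E, 22.6 and 24.3 in Input and 277 in IgG, so its log2 fold change of 3.59 against Input was met by a near-equal level in the control precipitate. Eif4e, the mRNA of the precipitated protein, had 1231 and 1300.1 in eIF4E, 198 and 205 in Input and 120.2 in IgG (2.65 against Input, limma adjusted p = 4.7e-05). Eif4ebp1 (-0.99, limma adjusted p = 5.62e-04) and Mtor (-0.79, limma adjusted p = 0.00304) were lower. Of the S6 kinase family, whose targets include Rps6, 9 of 10 listed genes were tested. Of these, 5 (55.6%) were higher in eIF4E than in Input, against 43.3% of all tested genes. None was lower, although 1 and 3 were lower with median-of-ratios and quantile scaling. Among them Rps6kb1, the S6 kinase itself, was higher by 2.38 (limma adjusted p = 7.7e-05) and Rps6ka6 by 2.28 (limma adjusted p = 4.46e-04). Rps6ka6 had 44.1 in IgG against 16.1 and 16.8 in eIF4E, so it was lower in eIF4E than in IgG (-1.37), where Rps6kb1 was higher (0.60). Over the family, 5 were higher and 3 lower in eIF4E than in IgG. These shares, 55.6% and 33.3%, were near the 53.1% and 30.6% of all tested genes.

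The factors that assemble the small subunit in the nucleolus and cytoplasm were split between both directions. Of 55 listed, 54 were tested, and 24 were higher and 24 lower in eIF4E than in Input, with a median log2 fold change of -0.01. The share higher, 44.4%, was near the 43.3% of all tested genes. The share lower was also 44.4%, against 30.6% of all tested genes. The split of higher to lower was 19 to 29, 19 to 22 and 26 to 14 under the 3 scalings. Mphosph10 (3.63, limma adjusted p = 5.4e-05), of the small-subunit processome, and Nop58 (2.60, limma adjusted p = 5.4e-05), a core protein of box C/D particles, were at the top. Fbl, the methyltransferase of the same particles (-2.01, limma adjusted p = 5.4e-05), and Rrp12 (-1.88, limma adjusted p = 1.24e-04) were at the bottom. Mphosph10 was also higher in IgG (28.4) than in Input (4.11 and 3.62), under its eIF4E values (57.3 and 60.9). Its log2 fold change was 2.60 in IgG against Input and 1.03 in eIF4E against IgG. Nop58 had a higher value in IgG (371) than in eIF4E (279.7 and 304) and was lower in eIF4E than in IgG (-0.35). Over the list 26 (48.1%) were higher and 13 (24.1%) lower in eIF4E than in IgG. Of all tested genes 53.1% were higher and 30.6% lower in that comparison. The difference between this list and the 40S proteins was not tested.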

How the data were processed

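Cortices were dissociated and lysed, and a cytoplasmic supernatant was used as Input or precipitated with anti-eIF4E or control IgG; Smart-seq2 libraries followed, per the labels' protocols. The authors deposited 1 table of a non-negative abundance signal per gene and library; STAR 2.7.9a, RSEM 1.3.3 and mm10 are named in the submitters' processing notes. Annotation and options: not given in the sources used here. The depth is unknown, so no counting intervals are given. Of 50161 rows, 286 repeated a gene identifier and were dropped.

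Testing used limma 3.58.1 (R 4.3.3) on log2(value + 1), a pseudocount of 1, of the 12769 genes that reached 1 in 2 or more of the 5 libraries: 3 groups, eBayes with trend, two-sided tests, adjustment over all genes by Benjamini-Hochberg, 2 residual degrees of freedom. The fit was tested on simulated data. Groups came from sample titles. Alternatives were 3 scalings, 2 pseudocounts, 2 filters, leaving out each library and a replicate block. Members with values in every library are those with the 3 highest and lowest Input means, the 4 highest and lowest fold changes per comparison, those higher or not called against Input, the paralogs with partners, and Rps3a1, Rpsa, Rps6 and Rps14; of other lists, the 2 highest and lowest called. Some members that this rule or the name rule picks are counted but not reported here by value. Members and lists were chosen with earlier results of these data known. Sequences and gene biotypes are from RefSeq tables of GRCm38.p6, and no genome or protein table was used here.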

Additional observations from a re-analysis of the deposited data

How the results depend on the processing

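Of the alternatives for eIF4E against Input, the number of members higher was 0 with median-of-ratios scaling, 2 with quantile normalization, 2 with the same total, 0 without the filter on low values, and from 0 to 1 when single libraries were left out. The members lower ranged from 25 to 34 in those leave-one-out fits. With the replicate number as a block, 31 members were lower, 0 were higher, and over all genes 5401 were higher and 3749 lower. Whether same-numbered libraries shared a lysate is not known here. The correlation of same-numbered deviations was 0.024 over all tested genes and -0.13 over the 36 tested members. With only 2 pairs this cannot decide whether the numbers pair the libraries.

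For eIF4E against IgG, members lower were 8 with quantile normalization and 5 with the same total, and genes higher were 4389 when a value above 0 was required in all 5 libraries. For IgG against Input, members higher were 3 with quantile normalization, 3 with the same total and from 1 to 2 when libraries were left out. The members' median was -2.83 with median-of-ratios scaling, -1.98 with quantile normalization, -1.97 with the same total and -2.38 with a pseudocount of 5, and 4072 genes were lower with the stricter filter. With named pseudogenes added, the members held 4.15% of Input.

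Signs turned as follows, in log2 fold change. Against Input, quantile normalization gave eIF4E values of 0.27 for Rps27l, -0.062 for Rps3a2 and 0.055 for Rps6; the same total gave 0.066 for Rps27l; median-of-ratios gave -0.25 for Rps28, -0.18 for Rps3a1 and -0.15 for Rps3a2; leaving out single libraries gave from -0.38 to 0.53 for Rps28 and from -0.93 to 0.46 for Rps29, the lowest without eIF4E replicate 1 and the highest without eIF4E replicate 2. Against IgG, quantile normalization gave -0.45 for Rps2, -0.11 for Rps3a1, -0.59 for Rps6, -0.36 for Rps9 and -0.46 for Rpsa; the same total gave -0.16 for Rps2, -0.042 for Rps4l, -0.038 for Rps6 and -0.066 for Rpsa; Rps3 ran from -0.032 to 0.0079 when libraries were left out. In IgG against Input, quantile normalization gave 0.70 for Rps3a1 and 0.65 for Rps6, and the same total 0.29 for Rps3a1 and 0.12 for Rps3a2. The cause of these changes was not tested. Depth is unknown, so its limits cannot be given.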
